A study of Rattus norvegicus with 8 samples.

Results

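Hgf, Fgf2 and Vegfa encode secreted growth factors, and their mRNA was followed here by Ensembl gene ID (ENSRNOG00000007027, ENSRNOG00000017392 and ENSRNOG00000019598, in that order) as 3 of the 21867 genes in the tables of estimated counts. RNA sequencing covered 8 libraries of cultured cells from neonatal rat heart, with 2 biological replicates in each of 4 groups. Cardiac fibroblasts (CF) were the starting cells and were grown in medium with 10% fetal bovine serum. Myofibroblasts (MF) were made from CF by continuous passaging in low-serum medium. In the remaining groups, such myofibroblasts were exposed for 72 h to direct current of 1 µA or 2 µA per square centimetre, without polarity reversal, through electrodes placed in standard medium with 10% serum. The medium of the untreated MF over those 72 h is not given in the sources used here, so an effect of the current and one of the medium cannot be told apart. The paper reports checking differentiation by qPCR and staining of myofibroblast markers such as alpha-smooth muscle actin. In the sequencing data, cell identity and the presence of other heart cells were not checked against marker genes, because the gene IDs could not be paired with symbols here.

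Paracrine growth factors are proteins that a cell secretes to act on its neighbours, and fibroblasts are one of their main sources in the heart. HGF (hepatocyte growth factor) is made by mesenchymal cells as an inactive precursor, is cut by serine proteases, and signals through the receptor tyrosine kinase MET on epithelial, endothelial and muscle cells. It is known as an antagonist of TGF-beta driven fibrosis. FGF2 (basic fibroblast growth factor) binds heparan sulphate and FGF receptors, drives division of fibroblasts and growth of vessels, and leaves the cell without a classical signal peptide. VEGFA is the chief growth factor of vascular endothelium, acts through the receptors FLT1 and KDR with neuropilins as co-receptors, and its gene is a classical target of the oxygen-sensing HIF transcription factors.

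Fgf2 and Vegfa had higher levels in all current-treated libraries than in all untreated ones and Hgf did not. Of the 13849 genes tested, 7.5% had this pattern, so it does not set the 2 genes apart from many others. The log2 fold change of Vegfa also stayed under 1 in size in every comparison. The bases before the start of each gene were searched for motifs, and whether these sequences bear on the levels was not tested. Each sequence holds the 250 bases before the RefSeq start in build GRCr8, 5′ to 3′ on the strand of the gene, at chr4:19700468-19700717 (minus strand) for Hgf, chr2:122164204-122164453 (plus strand) for Fgf2 and chr9:22452604-22452853 (plus strand) for Vegfa. Capitals mark matches, on either strand, to the GC box GGGCGG, the hypoxia response core ACGTG, the AP-1 site TGANTCA or the TATA box TATAAA.
Hgf: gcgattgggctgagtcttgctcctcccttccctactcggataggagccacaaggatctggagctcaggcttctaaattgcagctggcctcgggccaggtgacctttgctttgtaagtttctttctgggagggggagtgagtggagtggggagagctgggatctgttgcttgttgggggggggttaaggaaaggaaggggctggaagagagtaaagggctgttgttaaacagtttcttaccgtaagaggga
Fgf2: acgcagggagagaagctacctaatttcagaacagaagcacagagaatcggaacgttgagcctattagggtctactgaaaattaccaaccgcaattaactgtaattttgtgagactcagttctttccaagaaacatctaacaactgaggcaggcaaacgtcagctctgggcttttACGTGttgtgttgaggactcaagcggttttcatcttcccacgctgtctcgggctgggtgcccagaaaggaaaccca
Vegfa: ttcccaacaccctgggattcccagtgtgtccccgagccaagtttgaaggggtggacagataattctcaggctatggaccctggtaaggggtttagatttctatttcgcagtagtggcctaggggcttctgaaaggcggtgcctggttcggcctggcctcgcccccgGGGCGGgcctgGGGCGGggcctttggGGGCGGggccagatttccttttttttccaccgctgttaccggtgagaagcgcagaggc

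The Vegfa window held 3 GC boxes, which began 84, 73 and 58 bases before the start, and none of the other motifs. The Fgf2 window held 1 match to ACGTG, 76 bases before the start, and the Hgf window held none of the 4 motifs. Sequence further upstream was not searched, so a motif absent from a window may still lie there. Of all 33469 such RefSeq windows, 30.5% held at least 1 GC box, 16.6% ACGTG, 6.34% the AP-1 site and 12.9% the TATA box. A window with at least 1 match to the GC box or to ACGTG is thus not rare. The share of windows with 3 GC boxes was not counted. The share of G and C was 54% before Hgf, 46.8% before Fgf2 and 60.4% before Vegfa. A further Vegfa window in the table, before an internal start, held none of the 4 motifs.

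The libraries held 26473085 to 37903701 estimated counts each, and the total of a further deposited matrix of whole-number counts ranged from 18960425 to 26687203. The CF replicates differed most from each other, with a chi-square per gene of 119 against 16.9 for the MF replicates. Levels are given below as CPM, the estimated counts scaled to a common library size after TMM normalization, and are compared between libraries, not between genes, since gene length was not taken into account. Because the libraries are bulk RNA, fewer cells that express a gene and less RNA per cell cannot be told apart. Calls required 2 things of edgeR's quasi-likelihood test over 13849 genes, a Benjamini-Hochberg adjusted p under 0.05 and a log2 fold change of 1 or more in size.

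Fgf2 mRNA was 2.32-fold higher after 1 µA and 2.34-fold higher after 2 µA than in untreated myofibroblasts, and it also exceeded the level in the starting fibroblasts. It was the only called gene of the 3, in every comparison of treated with untreated cells. Fgf2 stood at 2.54 and 2.65 CPM in the CF libraries and at 2.73 and 3.16 CPM in the MF libraries. After 1 µA it stood at 6.96 and 6.74 CPM, and after 2 µA at 5.78 and 8.03 CPM. All 4 treated libraries lay above all 4 untreated libraries, with the 2 µA replicates further apart than those of the other groups. Over all genes tested, 7.5% had all treated libraries above all untreated ones in this way. The counts behind these values were small, from 73 to 96 estimated counts in the untreated libraries and from 180 to 248 in the treated ones, which is a counting error of 6.35% to 11.7%.

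**Figure D1:**
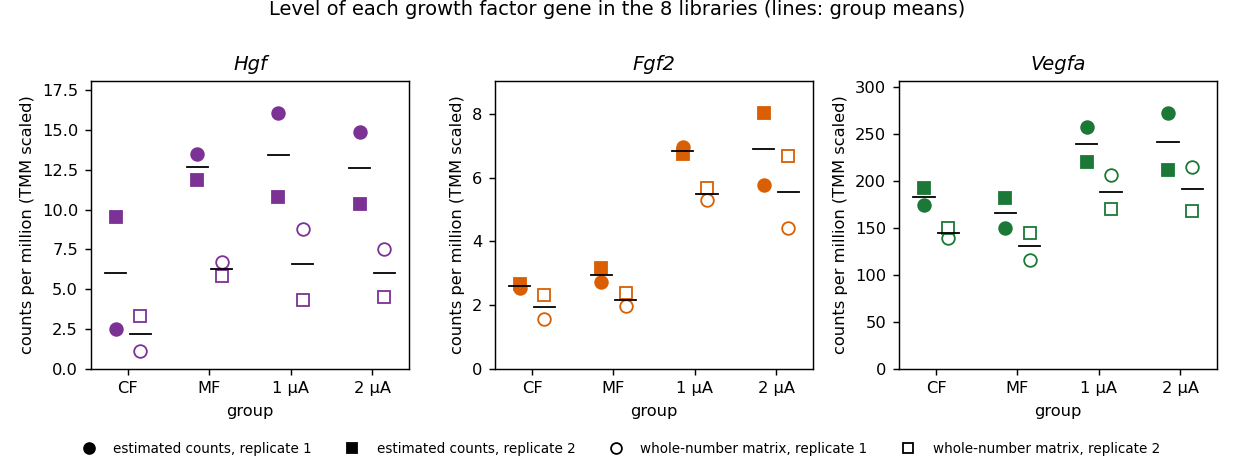
CPM (linear y axis from 0) of Hgf, Fgf2 and Vegfa in each library of CF, MF, 1 µA and 2 µA (x axis), with circles for replicate 1, squares for replicate 2 and lines at group means. Filled points are estimated counts and open points the whole-number matrix. The 4 filled Fgf2 points of treated cells sit at 5.78 to 8.03 CPM, above the 2.54 to 3.16 CPM of CF and MF, and the filled Hgf points of CF lie at 2.47 and 9.56 CPM.

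Against MF, the log2 fold change of Fgf2 was 1.22 at 1 µA (SE 0.221, adjusted p = 0.0298 by edgeR), a ratio of 2.32 with a 95% interval of 1.62 to 3.34. At 2 µA it was 1.23 (SE 0.221, adjusted p = 0.0261), a ratio of 2.34 with an interval of 1.63 to 3.36. In these comparisons, 3.92% and 4.62% of all genes tested were called in either direction, and 1.65% and 1.96% were called higher. For the mean of both densities, the log2 fold change was 1.22 (SE 0.199, adjusted p = 0.0134), larger in size than that of 91.3% of all genes tested, with 6.76% of genes called and 2.87% called higher. These 3 comparisons share the MF libraries, and none of the 3 calls survived the loss of either one. Such fits, with 1 MF library left, called far fewer genes over the whole table than the main fit. The log2 fold change of Fgf2 in them ran from 1.11 to 1.34. The 1 µA call was also lost without 1 µA replicate 1 (adjusted p = 0.129) or replicate 2 (adjusted p = 0.194). The 2 µA call was also lost without 2 µA replicate 2 (0.97, adjusted p = 0.0749) and without 1 µA replicate 1 (adjusted p = 0.0607) or replicate 2 (adjusted p = 0.0603). For the mean of both densities, without MF replicate 1 the log2 fold change of the mean was 1.12 (adjusted p = 0.148), and without MF replicate 2 it was 1.33 (adjusted p = 0.1002). It was 1.24 (adjusted p = 0.0550) without 1 µA replicate 2, and it was called in the other 5 fits that left out 1 library.

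Against the starting fibroblasts, Fgf2 was also higher after treatment. The log2 fold change was 1.40 at 1 µA (SE 0.220, adjusted p = 0.0137), a ratio of 2.63 with an interval of 1.84 to 3.78. At 2 µA it was 1.41 (SE 0.220, adjusted p = 0.0163), a ratio of 2.66 with an interval of 1.85 to 3.81. Of all genes tested, 6.51% were called at 1 µA against CF, with 3.82% called higher, and 5.02% at 2 µA against CF, with 2.89% called higher. All 4 treated libraries lay above both CF libraries in 20.5% of genes. The 1 µA call was lost without 1 µA replicate 1 (adjusted p = 0.0944) or replicate 2 (adjusted p = 0.0738), while the 2 µA call was made in all 8 fits that left out a library. Fitted with only the CF and 2 µA libraries, it had an adjusted p of 0.132.

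Differentiation to myofibroblasts left no detectable difference in Fgf2. MF against CF gave a log2 fold change of 0.18 (SE 0.224, adjusted p = 0.603), a ratio of 1.13 with an interval of 0.785 to 1.64, where 10.4% of all genes tested were called and 6.36% were called higher. By group mean the order was CF at 2.60 ± 0.0752 (SD, n = 2) CPM, MF at 2.94 ± 0.305 (SD, n = 2), 1 µA at 6.85 ± 0.156 (SD, n = 2) and 2 µA at 6.90 ± 1.59 (SD, n = 2). Both MF libraries lay above both CF libraries, as for 31.3% of all genes tested, but in the matrix of whole-number counts they overlapped. Within this order neither MF against CF nor 2 µA against 1 µA was called, and every treated group was called against every untreated one. The authors' variance stabilised values on a log2 scale also placed MF above CF and the treated libraries above both. They were 7.13 and 7.15 in CF, 7.18 and 7.31 in MF, and 7.91 to 8.27 in the treated libraries. Their group means were 8.096 at 1 µA and 8.091 at 2 µA, the reverse of the CPM order.

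**Figure D2:**
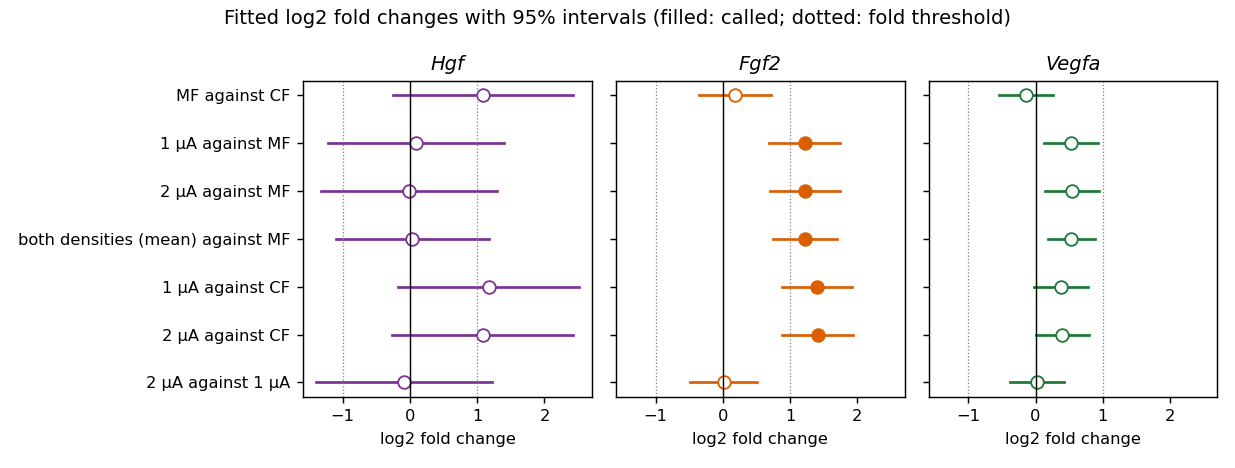
Log2 fold changes (x axis) of Hgf, Fgf2 and Vegfa in the 7 comparisons (y axis), with 95% intervals from edgeR as lines; filled points are called and dotted lines mark the threshold of 1 on the log2 scale. The 5 filled points are the Fgf2 comparisons of treated with untreated cells, at 1.22 to 1.41, and every Hgf interval crosses 0.

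Vegfa mRNA was 1.44-fold higher after 1 µA and 1.46-fold higher after 2 µA than in MF, a difference that did not pass the thresholds. Vegfa stood at 174 and 192 CPM in CF and at 150.25 and 182 CPM in MF. It stood at 258 and 220.3 CPM after 1 µA and at 272 and 212 CPM after 2 µA. The lowest treated library, at 212 CPM, was above the highest untreated library, at 192 CPM, so that for Vegfa too the treated and untreated libraries did not overlap, as for 7.5% of all genes tested. The estimated counts of Vegfa, from 4019 to 8483, keep the counting error at 1.09% to 1.58%, so the spread between replicates, and not depth, set the precision.

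The log2 fold change of Vegfa against MF was 0.52 at 1 µA (SE 0.169, adjusted p = 0.107), a ratio of 1.44 with an interval of 1.09 to 1.90. At 2 µA it was 0.54 (SE 0.169, adjusted p = 0.0930), a ratio of 1.46 with an interval of 1.10 to 1.92. The mean of both densities gave 0.53 (SE 0.149, unadjusted p = 0.00913, adjusted p = 0.0560), with 4 of 4 treated libraries above both MF libraries, which held for 26.4% of all genes tested. Over the alternatives that left no single library out, its adjusted p ran from 0.0118 with DESeq2 to 0.0886 with replicate number as a block. The fold threshold was not reached in any of them. With 1 library left out its log2 fold change ran from 0.40 without MF replicate 1 (adjusted p = 0.360) to 0.68 without MF replicate 2, and the lowest adjusted p was 0.0379, without 2 µA replicate 2. With an adjusted p below 0.05 alone, edgeR called 15% of all genes for the mean of both densities, 6.99% at 1 µA and 7.92% at 2 µA against MF, 9.57% at 1 µA and 7.13% at 2 µA against CF, and 18.5% for MF against CF. By that rule too Fgf2 was called in the 5 comparisons of treated with untreated cells, and Vegfa and Hgf in none.

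Vegfa in treated cells against CF had a log2 fold change of 0.38 at 1 µA (SE 0.168, adjusted p = 0.204). At 2 µA against CF it was 0.40 (SE 0.168, adjusted p = 0.208). MF against CF gave -0.14 (SE 0.168, adjusted p = 0.587), a ratio of 0.906 with an interval of 0.688 to 1.19, and the CF and MF libraries overlapped. By group mean the order was MF at 166 ± 22.6 (SD, n = 2) CPM, CF at 183 ± 12.8 (SD, n = 2), 1 µA at 239 ± 26.3 (SD, n = 2) and 2 µA at 242 ± 43.0 (SD, n = 2). No pair of neighbours in this order was called as different.

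Hgf showed no detectable response to the current and had the largest difference between replicates of the 3 genes in every group except MF. In CF it stood at 2.47 CPM in replicate 1 and 9.56 CPM in replicate 2. In MF it stood at 13.5 and 11.9 CPM. After 1 µA it stood at 16.1 and 10.8 CPM, and after 2 µA at 14.9 and 10.3 CPM. The MF values lay inside the range of the treated libraries, from 10.3 to 16.1 CPM. Both CF libraries lay below all other libraries, with the higher at 9.56 CPM. All 4 treated libraries lay above both CF libraries in 20.5% of all genes tested, and both MF libraries did so in 31.3%. The share of genes with both patterns was not computed. The CF replicates differed 3.88-fold, a replicate difference at least as large as that of 97.7% of all genes tested, for which the median was 1.20-fold.

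Against MF, the log2 fold change of Hgf was 0.08 at 1 µA (SE 0.550, adjusted p = 0.944), a ratio of 1.06 with an interval of 0.427 to 2.62. At 2 µA it was -0.01 (SE 0.550, adjusted p = 0.994), a ratio of 0.994 with an interval of 0.401 to 2.46. Changes of Hgf inside these wide intervals were not detectable in these libraries. For the mean of both densities it was 0.04 (SE 0.477, adjusted p = 0.968), near the median of all genes tested.

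Whether Hgf rose on differentiation depended on the CF replicate. With all libraries, MF against CF gave a log2 fold change of 1.09 (SE 0.564, adjusted p = 0.218), a ratio of 2.12 with an interval of 0.837 to 5.39, and both MF libraries were above both CF libraries, as for 31.3% of all genes tested. Without CF replicate 2 it was 2.36 (adjusted p = 0.00717), which is called. Without CF replicate 1 it was 0.42 (adjusted p = 0.447). At 1 µA against CF the log2 fold change was 1.17 (SE 0.564, adjusted p = 0.241), and at 2 µA against CF it was 1.08 (SE 0.563, adjusted p = 0.298). These rose to 2.44 and 2.36, both called, without CF replicate 2, and fell to 0.50 and 0.42 without CF replicate 1. By group mean the order was CF at 6.01 ± 5.02 (SD, n = 2) CPM, 2 µA at 12.6 ± 3.21 (SD, n = 2), MF at 12.7 ± 1.16 (SD, n = 2) and 1 µA at 13.4 ± 3.75 (SD, n = 2), with no pair of neighbours called as different.

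**Figure D3:**
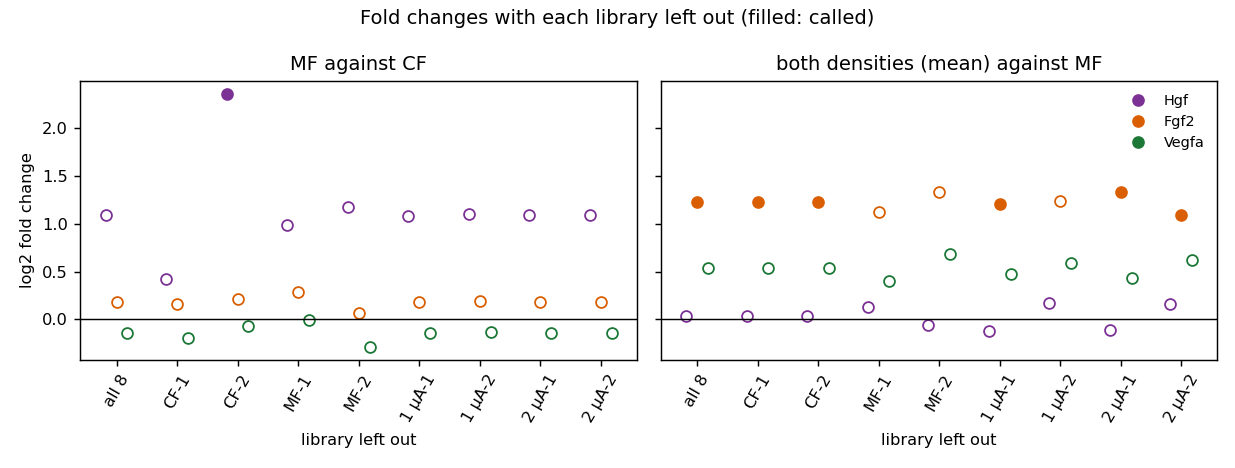
Log2 fold change (y axis) of each gene with all 8 libraries and with each library left out in turn (x axis, group and replicate), for MF against CF and for the mean of both current densities against MF; filled points are called. In the first panel Hgf moves from 0.42 without CF replicate 1 to 2.36 without CF replicate 2, while Fgf2 in the other panel stays between 1.09 and 1.33.

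The current densities gave no detectable difference in any of the 3 genes. At 2 µA against 1 µA the ratio was 1.01 for Fgf2 with an interval of 0.712 to 1.43 (adjusted p = 1). For Vegfa the ratio was 1.01 with an interval of 0.769 to 1.34 (adjusted p = 1). For Hgf it was 0.939 with an interval of 0.380 to 2.32 (adjusted p = 1). In this comparison 0.00722% of all genes tested were called, which is 1 gene. Differences inside these intervals are not excluded.

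Within each current density, replicate 1 was higher than replicate 2 for Hgf and Vegfa. The ratio of replicate 1 to replicate 2 was 1.49 at 1 µA and 1.44 at 2 µA for Hgf. For Vegfa it was 1.17 at 1 µA and 1.29 at 2 µA. For Fgf2 it was 1.03 at 1 µA and 0.720 at 2 µA, without a common direction. Replicate 1 was above replicate 2 at both densities in 27.4% of all genes tested. The labels do not say what the replicate numbers share between groups.

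The spread of the genes between replicates differed. Hgf had a biological coefficient of variation of 38.8%, at percentile 94.0 of all genes tested. This is edgeR's gene-wise dispersion estimate, which is moderated towards the trend of all genes. Fgf2 had 17.0% and Vegfa 14.2%, close to the median of 14.6%.

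**Figure D4:**
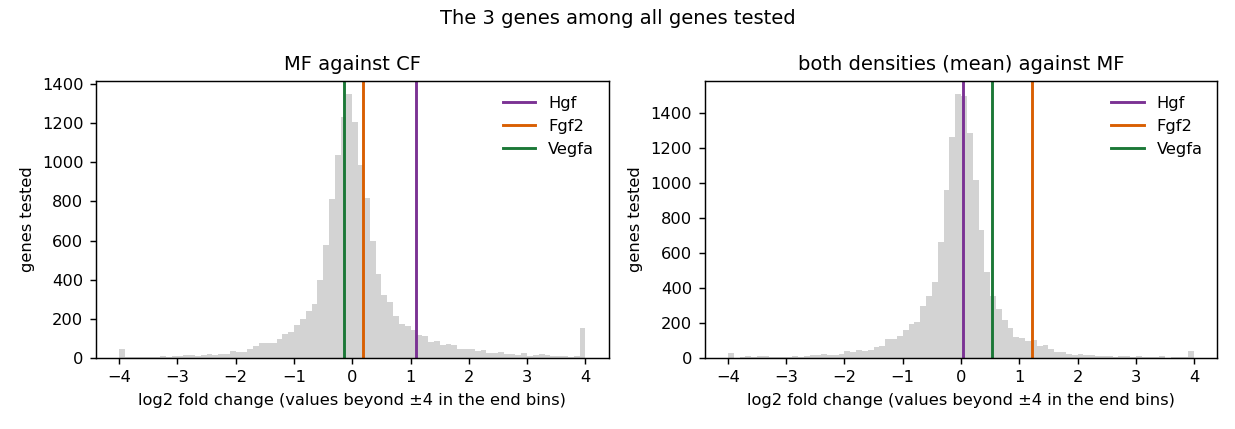
Number of genes tested (y axis) by log2 fold change (x axis) for MF against CF and for the mean of both current densities against MF, with vertical lines at Hgf, Fgf2 and Vegfa. For the treated cells, Fgf2 lies at 1.22 in the upper flank, Vegfa at 0.53 and Hgf at 0.04 beside the peak.

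The matrix of whole-number counts gave a second estimate from the same libraries, with lower values for all 3 genes. Fgf2 had 41 and 51 counts in CF, 39 and 45 in MF, 111 and 125 after 1 µA, and 99 and 149 after 2 µA. The 4 treated libraries were again above the 4 untreated ones. The log2 fold change against MF was 1.34 at 1 µA (SE 0.314, adjusted p = 0.0501), just short of the threshold, where 3.79% of the 13339 genes tested in the matrix were called. At 2 µA it was 1.35 (SE 0.313, adjusted p = 0.0459), which is called along with 4.35% of genes. The mean of both densities gave 1.35 (SE 0.284, adjusted p = 0.0250), a ratio of 2.54.

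Vegfa had 3696 and 3285 matrix counts in CF, 2299 and 2745 in MF, 4326 and 3756 after 1 µA, and 4815 and 3748 after 2 µA. Its log2 fold change for the mean of both densities against MF was 0.54 (SE 0.155, adjusted p = 0.0587), close to the 0.53 of the estimated counts. Hgf had 30 and 72 matrix counts in CF, 133 and 110 in MF, 184 and 95 after 1 µA, and 169 and 101 after 2 µA. MF against CF gave 1.51 for Hgf (SE 0.555, unadjusted p = 0.0291, adjusted p = 0.105), not called, with 9.87% of genes called. The CF replicates of Hgf differed 2.90-fold in the matrix and the 1 µA replicates 2.04-fold.

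As a share of the estimated count, the matrix held 33.1% ± 4.59 (SD, n = 8 libraries) for Hgf, 55.3% ± 6.38 (SD, n = 8 libraries) for Fgf2 and 56.6% ± 0.495 (SD, n = 8 libraries) for Vegfa. The share for Hgf was at percentile 7.49 of the 11253 genes held by both tables with at least 10 estimated counts in every library, and those of Fgf2 and Vegfa were at percentiles 20.2 and 21.2. The median over these genes was 71.3% to 74.8% by library. For Hgf the share ranged from 24.7% in CF replicate 2 to 38.5% in 1 µA replicate 1, so the tables differ in how far apart they place those libraries. Why the matrix counts are lower than the estimated counts was not tested.

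**Figure D5:**
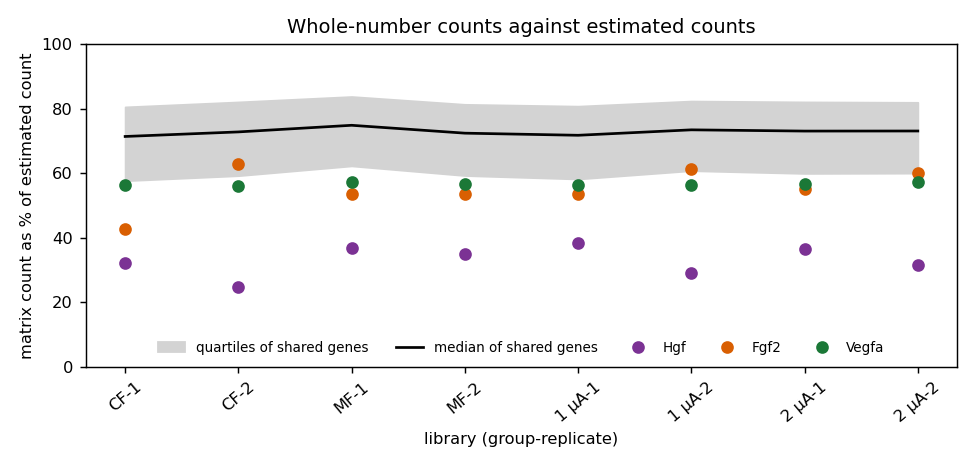
Whole-number matrix count as a percentage of the estimated count (y axis) in each library (x axis, group and replicate) for Hgf, Fgf2 and Vegfa, beside the median (line) and quartiles (grey) of the 11253 genes in both tables. Hgf lies at 24.7% to 38.5% in every library, below the lower quartile, and Vegfa holds at 55.9% to 57.3%.

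The authors' normalized values carry a factor for the average transcript length of each gene in each library, which moves when a gene changes its mix of long and short transcripts. Relative to the median gene of the library, this factor spanned 0.995 to 1.01 for Vegfa, whose transcripts are known to be spliced to several lengths. It spanned 0.981 to 1.02 for Fgf2 and 0.989 to 1.01 for Hgf. The ratio of the highest to the lowest library was 1.01 for Vegfa, 1.04 for Fgf2 and 1.02 for Hgf, beside a median of 1.02 over 12558 genes, so average length moved little in each.

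In the RefSeq annotation of GRCr8, the span of Fgf2 overlaps that of Nudt6, known as its antisense partner, and the span of Hgf overlaps a long noncoding RNA gene, LOC103692033. No gene overlaps Vegfa there. Strandedness of the libraries and of the counting is not given in the sources used here, so reads of Fgf2 and Nudt6 that fall in shared sequence cannot be told apart. Which share of the Fgf2 counts this concerns was not tested.

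Likeness to the 3 genes was measured over the 8 libraries. On the variance stabilised values, 163 of the other 13848 genes (1.18%) had a Pearson correlation above 0.9 with Fgf2, 136 (0.982%) with Vegfa and 266 (1.92%) with Hgf. The closest gene to each had a correlation of 0.981 for Fgf2, 0.976 for Vegfa and 0.986 for Hgf. The 8 points fall into groups that share a treatment, so such correlations describe the group pattern, and these genes are known by ID alone and are not named.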

How the data were processed

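The authors deposited estimated counts per gene (salmon on the rn6 transcriptome, summarised with tximeta), a normalized signal made from them with DESeq2 factors, and variance stabilised values on a log2 scale. A deposited matrix of counts, all whole numbers, comes with no pipeline of its own in the sources used here. Per the labels, reads were trimmed with fastp and aligned with STAR, and the processing notes name DESeq2 1.28.1. Groups came from sample titles.

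Estimated counts were rounded, filtered with filterByExpr, TMM scaled and fitted with edgeR 4.0.16 (limma 3.58.1, R 4.3.3), robust quasi-likelihood, 1 coefficient per group over 8 libraries and 4 residual degrees of freedom. Benjamini-Hochberg adjustment ran over 13849 genes. Two-sided 95% intervals and SEs came from the F statistic. On simulated counts for MF against CF (13662 genes tested), 91.5% of 200 genes changed by 2 on the log2 scale were recovered, with 1 false call. The simulation gave each gene the trended spread, the same in every group, and a larger change than the main fit found for Hgf, Fgf2 or Vegfa. It therefore does not show how often changes of their size and spread are found. An exact permutation test of 2 against 2 cannot go below 0.333 and was not used. With 2 cultures a group, p-values rest on the spread shared by the groups.

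The alternatives tried were scaling by RLE or upper quartile, DESeq2 1.42.0, the matrix, no filter, a minimum of 10 counts per library, only the groups compared, a replicate block, transcript length offsets, adjusted p alone, and each library left out. The genes and lists were chosen with earlier results of these data known. Hand-written lists for the HGF, FGF, VEGF and HIF pathways, other growth factors and cell type markers were not run, because no Ensembl ID in the tables could be paired with a symbol through the RefSeq table (0 matched). The rule for named genes (Hgf, Fgf2, Vegfa, their receptors, the most changed list members, and the 5 genes most like each) therefore named the 3 genes alone. Their IDs were paired with symbols in advance and not checked here against an annotation. Promoter sequences are from RefSeq (GRCr8). Python 3.11.15 and matplotlib 3.10.9 drew the figures.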

Additional observations from a re-analysis of the deposited data

How the results depend on the processing

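What caused these shifts was not tested. Besides the fits with 1 library left out, 10 settings were tried. They include the fit of only the groups compared, which drops the other libraries, and the main fit by adjusted p alone. In these 10, the log2 fold change of Fgf2 for the mean of both densities against MF was 1.22 to 1.35. Fgf2 was called in 10, and Vegfa stayed uncalled at 0.53 to 0.58. Fgf2 at 1 µA against MF was lost in the matrix of whole-number counts (1.34, adjusted p = 0.0501), and Fgf2 at 2 µA against CF with only the groups compared (1.41, adjusted p = 0.132). The sign turned for differences near 0, to 0.045 for Hgf at 2 µA against MF with upper quartile scaling and to -0.00257 for Fgf2 at 2 µA against 1 µA with the replicate block. With the replicate block Fgf2 for the mean of both densities was 1.22 (adjusted p = 0.0206), and no call of the 3 genes changed. Replicate differences correlated from -0.172 for CF and 1 µA to 0.242 for 1 µA and 2 µA, the one pair of groups above 0.1, so the numbers were not taken to pair libraries over all groups, and whether the treated libraries share a number's culture or day is not given in the labels.

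With 1 library left out, Fgf2 against MF ran from 1.11 to 1.33 with 1 µA (called in 4 of 8 fits), from 0.97 to 1.45 with 2 µA (3 of 8) and from 1.09 to 1.33 for the mean (5 of 8). Fgf2 after 1 µA ran from 1.37 to 1.42 against CF (6 of 8). Hgf ran from 0.42 to 2.36 for MF against CF, and against CF from 0.50 to 2.44 with 1 µA and from 0.42 to 2.36 with 2 µA. Hgf against MF ran from -0.23 to 0.34 with 1 µA, from -0.30 to 0.23 with 2 µA and from -0.12 to 0.17 for the mean. Vegfa was called in none of these fits and against MF ran from 0.39 to 0.67 with 1 µA, from 0.35 (without 2 µA replicate 1) to 0.71 with 2 µA and from 0.40 to 0.68 for the mean. Against CF it ran from 0.27 to 0.49 with 1 µA and from 0.21 (without 2 µA replicate 1) to 0.57 with 2 µA, and for MF from -0.29 (without MF replicate 2) to -0.0082 (without MF replicate 1). Between the densities, Fgf2 ran from -0.24 to 0.23, Hgf from -0.38 to 0.23 and Vegfa from -0.17 to 0.19. A group left with 1 library is assumed to vary like the others.

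The number of genes called over the whole table moved more. DESeq2 called 940 with 1 µA and 1036 with 2 µA relative to MF, 1072 for 2 µA relative to CF, and 7 between the densities. Fits of only the groups compared called 1164 for 1 µA relative to MF, 485 for 1 µA and 2 for 2 µA relative to CF, and 0 between the densities. Adjusted p alone called 2560 for MF relative to CF, and relative to MF 968 for 1 µA, 1097 for 2 µA and 2077 for the mean. The 1 gene called between the densities became 0 with a minimum of 10 counts and in the matrix. In edgeR these 2 fits and the fit of only the groups compared had 49, 73 and 83 genes at an unadjusted p below 0.05. With 1 library left out, MF relative to CF had 336 to 1997 genes called. Relative to MF, 1 µA had 4 to 886, 2 µA had 9 to 985 and the mean had 17 to 1101, each lowest without MF replicate 1. Relative to CF, 1 µA had 138 to 1191 and 2 µA had 292 to 1020. Between the densities 0 to 1 were called, with 58 to 787 at an unadjusted p below 0.05. The counting error of Fgf2, 6.35% to 11.7%, was below its moderated biological coefficient of variation of 17.0%.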
